A study of Homo sapiens with 6 samples.

Results

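The genes described here encode the proteins of the cytosolic ribosome. They were taken as the array probes whose transcript accession matched a RefSeq symbol beginning with RPL or RPS and a digit, or RPLP0, RPLP1, RPLP2 or RPSA, without the RPS6K kinases and without pseudogenes. This gave 169 of the 50599 probes, for 86 of the 21743 genes matched to a symbol. Of the 86 genes, 43 had 1 probe and 43 had more than 1, up to 9 for RPL21 and 6 for RPS3A. No probe was matched to RPL10 or RPSA here. The rule left out 30 probes of 21 pseudogene symbols, 21 probes of kinase symbols, 3 probes of noncoding RNAs and the probe of RPS19BP1.

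RNA came from MDA-MB-231, an established human breast cancer cell line, 72 h after transfection with the precursor of hsa-miR-205-5p, the precursor of hsa-miR-214-3p, or a scrambled control precursor. There were 2 arrays per group, 6 in all, each hybridized with the RNA of 1 sample labeled with 1 dye. Both precursors were bought and added from outside by reverse transfection, in which cells are seeded onto the transfection mix, and all cells are of 1 line, which limits the groups as a model of either miRNA at its own level. The labels do not say whether replicates were separate cultures, so p-values measure only the spread between these samples.

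A ribosome consists of a small subunit, which reads the mRNA, and a large subunit, which joins amino acids. Each protein of the RPS and RPL families occurs once in a typical ribosome, apart from the stalk proteins RPLP1 and RPLP2, and cells make these proteins in matched amounts. Their mRNAs are among the most abundant in a growing cell, and most begin with a run of pyrimidines that lets the mTOR pathway and LARP1 control their translation. An array reads the amount of mRNA and not its translation.

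The mature miRNAs that the precursors yield are shown for their seeds, bases 2 to 8, which are in capitals and pair with target mRNAs. Both come from chromosome 1, hsa-miR-205-5p from chr1:209432166-209432187 on the plus strand and hsa-miR-214-3p from chr1:172138816-172138837 on the minus strand (RefSeq, GRCh38.p14).
hsa-miR-205-5p: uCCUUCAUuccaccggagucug
hsa-miR-214-3p: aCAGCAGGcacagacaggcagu

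The start-site windows of 9 members are shown, those of the 6 genes called lower below and of the 3 stalk genes, which were not called, to let the presence or absence of the pyrimidine run be read. Each has 5 bases before and 25 bases from the annotated start, in RefSeq GRCh38.p14, on the strand of the gene, with a C followed by at least 5 pyrimidines in capitals. RPS3 lies at chr11:75399513-75399542 (plus strand), RPS9 at chr19:54200853-54200882 (plus), RPL29 at chr3:51995871-51995900 (minus), RPS14 at chr5:150449715-150449744 (minus), RPL7L1 at chr6:42879611-42879640 (plus) and RPL10L at chr14:46651757-46651786 (minus). The stalk genes lie at chr12:120201087-120201116 (RPLP0, minus), chr15:69452813-69452842 (RPLP1, plus) and chr11:809962-809991 (RPLP2, plus).
RPS3: cacttCCTTTCCTTTCagcggagcgcggcg
RPS9: cgcgcCTCTTTCTCagtgaccgggtggttt
RPL29: cctttCTCTTCCggttctaggcgcttcggg
RPS14: ccactCTCTCTTTCCggtgtggagtctgga
RPL7L1: gcgccgtagctaggagcggacgccataggt
RPL10L: taagagagcgcattttgacttcgaggcacc
RPLP0: gaggcCCTTCTCTCgccaggcgtcctcgtg
RPLP1: gagagCCCCTTTCCTCagctgccgccaagg
RPLP2: gccttCCTTTTCCTCCCTgtcgccaccgag

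A run of this kind began exactly at an annotated start in 46 of the 69 members with a window (66.7%), against 3.83% of all 27305 genes with one. Within 10 bases of a start it was present in 57 members (82.6%), against 24.6% of all genes. Only the gene's own strand was searched, and genes with several starts counted as holding the run if 1 start did. Of the 6 genes called lower with hsa-miR-205-5p, 4 held the run at the start, and the paralogs RPL7L1 and RPL10L did not, so their share was 66.7%, beside the 66.7% of all members. A match describes the letters and is not a tested site.

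In these bulk samples, fewer cells of a kind and less RNA per cell cannot be told apart. The signals of a probe were put on a log2 scale and each array's 75th percentile was subtracted. This scaled signal is the level in every value below, and a difference is one group mean minus another. To be tested, a probe had to exceed background clearly on each array of 1 group or more, which held for 162 of the 169 member probes and 83 of the 86 genes. RPL3L, RPS4Y1 and RPS4Y2 did not pass and have no test. RPL3L is the muscle paralog of RPL3, and its probe was well above background on 0 arrays. A gene with several probes is represented by the probe that was brightest on average over the arrays, called its brightest probe. A gene was called at a Benjamini-Hochberg adjusted p under 0.05 (limma, over all 18464 probes tested) and a change of at least 2-fold. All 6 arrays lay on 1 slide, 0 spots were saturated, and 35.4% to 42.2% exceeded background clearly. Precision is limited by having so few arrays, and the median standard error of a member's difference was 0.18. Probes of these genes can also bind transcripts of near-identical copies, since RefSeq lists 1994 pseudogenes of the families, so a value may mix a gene with its copies. As a check of the label, the MDA-MB-231 markers VIM, CD44, CAV1, EGFR and AXL were well above background on all 6 arrays and ESR1, PGR and FOXA1 on 0. The epithelial genes CDH1 and EPCAM, listed as low or absent, were well above background on all 6 and higher with hsa-miR-205-5p than in the control, by 1.96 and 2.40 on the log2 scale (limma adjusted p = 0.00799 and 0.00879). Their part in the results was not tested.

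Most ribosomal protein mRNAs stayed close to the control, while a few fell with hsa-miR-205-5p. RPS3, RPL7L1, RPL10L, RPS9, RPL29 and RPS14 were lower than in the scrambled control, by 2.16-fold to 7.48-fold, and 0 members were called higher. The 6 lower genes were 7.23% of the 83 tested, and 7.98% of all 11974 genes tested were called lower. For rises the shares were 0% of members and 4.78% of all genes. With hsa-miR-214-3p, 0 members were called in either direction, against 2.03% of all genes lower and 1.09% higher. These shares of all genes, 243 and 131 genes, fell to 0 and 0 without any 1 array except scrambled control replicate 2, without which 496 and 655 genes were called, and 1 member, RPL23, was higher. Between the precursors, the same 6 members were lower with hsa-miR-205-5p (7.23%, against 11.3% of all genes) and 0 were higher (against 9.18%). The scrambled arrays serve both precursors as control, and the hsa-miR-205-5p arrays enter both of its comparisons. The counts for hsa-miR-205-5p moved with single arrays, for members and for all genes alike. Against the control, where 6 members and 956 of all genes were called lower, both counts were 0 without hsa-miR-205-5p replicate 2. Without its replicate 1 they were 2 and 564, without either hsa-miR-214-3p array 2 and 405, and without scrambled control replicate 2 they were 3 and 794. In the comparison of the precursors, 6 and 1352 became 2 and 335 without hsa-miR-214-3p replicate 1, and 1 and 185 without its replicate 2. The members called higher against the control stayed at 0 or 1, while the 572 genes higher of all became 1065 without scrambled control replicate 1, 207 without hsa-miR-205-5p replicate 1, 212 without either hsa-miR-214-3p array and 0 without hsa-miR-205-5p replicate 2. The share of members against that of all genes also moved with the processing. With normexp background correction 7 members and 616 of all genes were lower against the control (134 higher), and 7 and 646 between the precursors (417 higher). With scaling to the median, 8 members and 1876 of all genes were lower against the control, and 212 of all genes were higher. Between the precursors 0 members were called higher in any of the leave-outs, while the 1099 genes higher of all fell to 265 without hsa-miR-214-3p replicate 1, 140 without its replicate 2, and 648 and 671 without hsa-miR-205-5p replicates 1 and 2. Whether the members were called lower less or more often than all genes therefore depended on the setting. The share of members called higher was not above that of all genes in any of these settings.

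**Figure D1:**
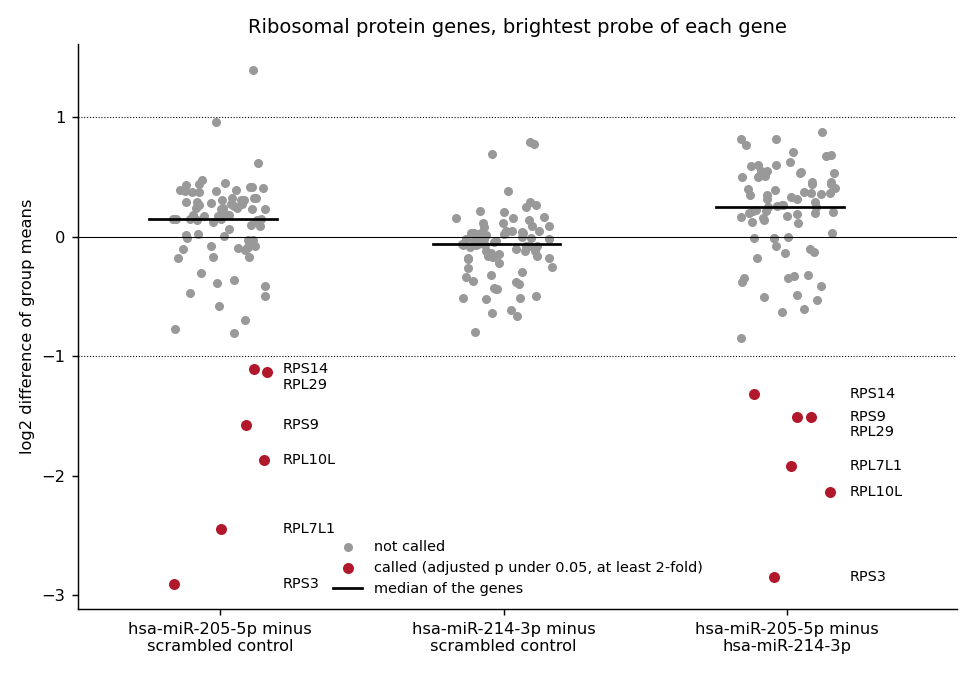
Log2 difference of group means (vertical axis) for the brightest probe of each of the 83 ribosomal protein genes tested, in the 3 comparisons; red points are called genes, black bars are medians and dotted lines mark 2-fold. The same 6 named genes lie below −1 in both comparisons of hsa-miR-205-5p, and no point is red for hsa-miR-214-3p against the scrambled control.

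Among the small subunit genes, the widest difference was that of RPS3, whose product sits where mRNA enters the ribosome and also acts in DNA repair. Its scaled log2 signal was 3.40 and 3.36 with hsa-miR-205-5p, 6.24 and 6.21 with hsa-miR-214-3p, and 5.99 and 6.57 in the scrambled control. Both hsa-miR-205-5p arrays lay below all 4 others, and the hsa-miR-214-3p arrays lay between the control arrays. The difference from the control was −2.90 (standard error 0.23, 95% interval −3.48 to −2.33, adjusted p = 0.00799), a 7.48-fold lower level, and that from hsa-miR-214-3p was −2.84 (adjusted p = 0.00383). RPS3 had 1 probe.

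RPS9 encodes a small subunit protein that takes part in accurate decoding. Its brightest probe read 6.18 and 7.07 with hsa-miR-205-5p, 8.14 and 8.13 with hsa-miR-214-3p, and 8.09 and 8.30 in the control. The hsa-miR-205-5p arrays differed from each other by more than any other pair, and both lay below the rest. The difference from the control was −1.57 (standard error 0.31, adjusted p = 0.026), and the gene's other probe gave −1.51 (adjusted p = 0.00914).

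RPS14 encodes a small subunit protein whose loss of 1 gene copy is known from a form of myelodysplastic syndrome. It read 8.002 and 7.998 with hsa-miR-205-5p, 9.34 and 9.29 with hsa-miR-214-3p, and 8.96 and 9.26 in the control. The hsa-miR-205-5p arrays lay below all others, and the difference from the control was −1.11 (standard error 0.17, adjusted p = 0.015). Its other probe, designed to a different RefSeq transcript, gave −0.64 against the control (adjusted p = 0.061) and −0.88 against hsa-miR-214-3p (adjusted p = 0.0198).

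Of the large subunit genes with their usual symbols, RPL29 was the 1 called of 42 tested. Its protein, which is specific to eukaryotes, is also known to bind heparin. The brightest probe read 7.49 and 7.26 with hsa-miR-205-5p, 8.87 and 8.89 with hsa-miR-214-3p, and 8.33 and 8.67 in the control. The order was hsa-miR-205-5p, control, hsa-miR-214-3p, without overlap. The difference from the control was −1.13 (standard error 0.19, adjusted p = 0.019), and hsa-miR-214-3p stood 0.38 above the control (adjusted p = 0.31). All 4 probes of RPL29 were called lower with hsa-miR-205-5p, with differences of −1.09 to −1.58.

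RPL10L and RPL7L1 are paralogs, extra copies that diverged from a ribosomal protein gene. RPL10L arose from the X-linked gene RPL10 and is known from the testis. Its probe read 4.82 and 4.78 with hsa-miR-205-5p, 6.86 and 7.02 with hsa-miR-214-3p, and 6.38 and 6.96 in the control, so both hsa-miR-205-5p arrays lay lowest. The difference from the control was −1.87 (standard error 0.23, adjusted p = 0.0105). RPL10L is nearly identical to RPL10, for which no probe was matched, and which of the copies the probe read cannot be told.

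RPL7L1 is related to RPL7 and takes part in the assembly of the large subunit. It read 2.13 and 2.32 with hsa-miR-205-5p, 4.32 and 3.97 with hsa-miR-214-3p, and 3.93 and 5.40 in the control. The control arrays differed from each other by more than the precursor arrays did, yet both lay above both hsa-miR-205-5p arrays. The difference from the control was −2.44 (standard error 0.48, adjusted p = 0.027). Of the 6 genes this was the one with the widest standard error, and its calls against the control and against hsa-miR-214-3p (−1.92, adjusted p = 0.034) were both lost when any 1 array of either precursor was left out. Over 18 alternatives the difference ran from −3.18 to −1.71 against the control, and from −2.14 to −1.74 against hsa-miR-214-3p.

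Other calls among the 6 genes were also lost without single arrays. Against the control, RPS9, RPL29 and RPS14 lost theirs without any 1 array of either precursor, with adjusted p of 0.0559 to 0.0723, 0.0598 to 0.0951 and 0.0604 to 0.081. Over the alternatives with an adjusted p their ranges were 0.00813 to 0.0866, 0.00659 to 0.0951 and 0.00477 to 0.081. RPS3 and RPL10L lost theirs without hsa-miR-205-5p replicate 2 (adjusted p = 0.0559 and 0.0621, at the top of their ranges from 0.00283 and 0.00354), and RPL10L also with no filter on dim probes. Between the precursors, RPS9, RPL29 and RPS14 were not called without either hsa-miR-214-3p array, nor RPL10L without its replicate 2, whereas RPS3 was called in each of the 18 alternatives.

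**Figure D2:**
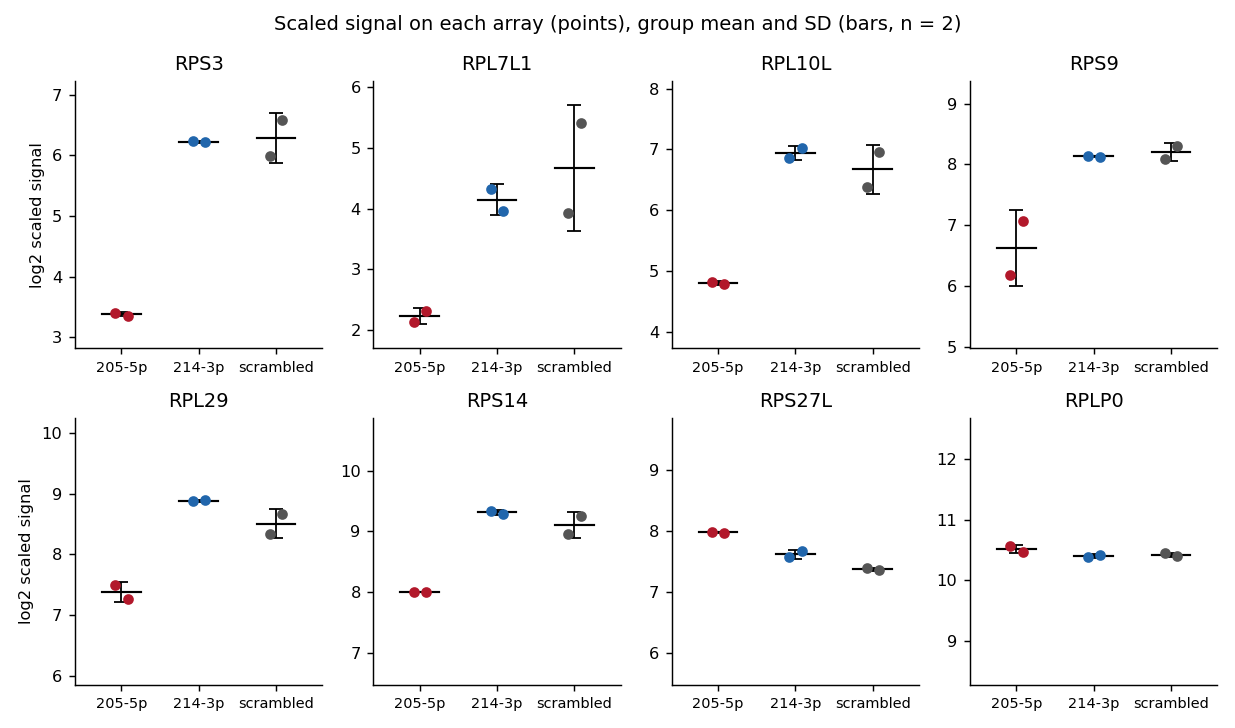
Scaled log2 signal (vertical axis, each panel spanning the same range of log2 units) on the 2 arrays of each group for the brightest probe of 8 ribosomal protein genes; points are arrays, horizontal bars are group means and error bars are the SD (n = 2). In the panels of RPS3, RPL7L1, RPL10L, RPS9, RPL29 and RPS14 both hsa-miR-205-5p points lie below the other 4, whereas those of RPS27L lie above the rest and those of RPLP0 at a mean 0.10 above the control.

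The other paralogs were not called at 2-fold. RPS27L, a paralog of RPS27 that p53 is known to activate, read 7.99 and 7.98 with hsa-miR-205-5p, 7.57 and 7.67 with hsa-miR-214-3p, and 7.39 and 7.35 in the control. The 3 groups did not overlap, and hsa-miR-205-5p was highest. Its difference from the control was 0.61 (adjusted p = 0.044), and that of RPS27 itself was 0.29 (adjusted p = 0.28). RPL22L1, a paralog whose amount RPL22 is known to limit, gave −0.30 (adjusted p = 0.207) for hsa-miR-205-5p and −0.66 (adjusted p = 0.0848) for hsa-miR-214-3p. RPL26L1, RPL36AL and RPL39L differed from the control with hsa-miR-205-5p by 0.29, 0.27 and −0.18, with adjusted p of 0.26 to 0.6. The parent genes gave −0.50 (RPL3), −0.03 (RPL7 and RPL22), 0.38 (RPL26), 0.33 (RPL36A) and 0.38 (RPL39), with adjusted p of 0.094 to 0.96.

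The stalk genes encode RPLP0, RPLP1 and RPLP2, which recruit elongation factors to the large subunit. Their brightest probes gave 0.10, −0.09 and −0.09 with hsa-miR-205-5p against the control, and −0.02, 0.29 and 0.09 with hsa-miR-214-3p, with adjusted p of 0.67 or more. RPLP0, often used as a reference gene, read 10.56 and 10.47 with hsa-miR-205-5p, 10.38 and 10.42 with hsa-miR-214-3p, and 10.44 and 10.40 in the control. The lowest and the highest of these arrays belonged to hsa-miR-214-3p and hsa-miR-205-5p. RPLP1 varied more within groups, with 8.40 and 7.40 on the hsa-miR-205-5p arrays.

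Without the 2-fold limit, 8 members were lower with hsa-miR-205-5p than in the control (9.64%, against 11.3% of all genes). Among those added to the 6 was RPL18, a large subunit gene, with a difference of −0.78 (adjusted p = 0.0292). RPS27L was the 1 member higher (1.2%, against 9.81% of all genes). Its difference ran from 0.22 to 0.63 over 18 alternatives, and its adjusted p reached 0.448. It no longer passed in several of them, among them normexp (0.35, adjusted p = 0.129), quantile normalization, scaling to the median and the authors' table. With hsa-miR-214-3p there were 0 in either direction by limma (against 2.09% of all genes lower and 1.21% higher). This 0 did not hold in every alternative, since RPL22L1 passed with normexp (adjusted p = 0.0253, range 0.0253 to 0.483), with the trended robust spread and without scrambled control replicate 2. At an unadjusted p under 0.05, 7 members were lower with hsa-miR-214-3p and 1 was higher, none of them by 2-fold, beside 13.4% of all genes lower and 10.8% higher at any fold.

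Against hsa-miR-214-3p, 8 members were lower with hsa-miR-205-5p at any fold (9.64%, against 16% of all genes), with RPL35 (−0.63) among those added to the 6. Higher were RPL39, RPL17, RPL36AL, RPS13, RPL24, RPL37 and RPL36A, by 0.59 to 0.87 on the log2 scale (8.43%, against 17.9% of all genes). These calls did not hold throughout. Over 18 alternatives the differences fell as low as 0.60 for RPL39, 0.59 for RPL17, 0.45 for RPL36AL and 0.32 for RPL36A. RPL39, a small protein that lines the exit tunnel, read 9.28 and 9.18 with hsa-miR-205-5p, 8.41 and 8.30 with hsa-miR-214-3p, and 8.98 and 8.72 in the control. The control arrays lay between those of the precursors. RPL17 read 6.37 and 6.06 with hsa-miR-205-5p, 5.38 and 5.42 with hsa-miR-214-3p, and 5.72 and 5.82 in the control, in the same order. RPL26, which came next in this difference at 0.81, had hsa-miR-214-3p arrays at 6.54 and 5.37 and an adjusted p of 0.16.

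Some wide differences rested on control arrays that disagreed. RPS20, a protein of the small subunit head, read 10.09 and 9.90 with hsa-miR-205-5p, 9.41 and 9.38 with hsa-miR-214-3p, and 9.87 and 7.34 in the control. Scrambled control replicate 2 was low and the other control array lay among the precursor arrays, so the highest value of the members, 1.40 with hsa-miR-205-5p against the control, had an adjusted p of 0.25. Without scrambled control replicate 1 it was 2.66, and without scrambled control replicate 2 it was 0.13. RPL23, which is known to bind MDM2, had 9.70 and 10.70 in the control and differences of 0.96 (adjusted p = 0.12) for hsa-miR-205-5p and 0.69 (adjusted p = 0.321) for hsa-miR-214-3p. Without scrambled control replicate 2 these were 1.46 and 1.19 (adjusted p = 0.033 and 0.049, against ranges of 0.033 to 0.34 and 0.049 to 0.87), and without scrambled control replicate 1 they were 0.46 and 0.19.

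With hsa-miR-214-3p, the brightest probes of the members stayed within 0.79 of the control in the main fit to all 6 arrays. Some other probes of members lay further from the control, in both directions. The lowest differences on the brightest probes were those of RPL7 (−0.79, adjusted p = 0.13), RPL22L1, and the read-through transcript RPL36A-HNRNPH2 (−0.64, adjusted p = 0.63). The probe of RPL36A-HNRNPH2 was well above background on 4 of 6 arrays. It read −2.34 and −0.21 with hsa-miR-214-3p, below and above both control arrays (−0.80 and −0.47). The highest were those of RPS20 (0.79, adjusted p = 0.59), RPL27A (0.77, adjusted p = 0.16) and RPL23. That of RPS20 was −0.47 without scrambled control replicate 2 and 2.06 without scrambled control replicate 1. The members with the highest mean signals of their brightest probes, RPS2, RPS21, RPL13, RPL6 and RPL23 were read as well. RPS2, a small subunit protein, differed from the control by 0.31 with hsa-miR-205-5p and 0.08 with hsa-miR-214-3p. RPS21 gave 0.37 and 0.04, RPL13 0.47 and 0.03, and RPL6 0.14 and −0.02, and none passed the test.

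Over the 83 members, the median difference was 0.15 with hsa-miR-205-5p, −0.07 with hsa-miR-214-3p and 0.24 between the precursors, beside 0.08, −0.01 and 0.12 for all genes. The sign of the members' median for hsa-miR-205-5p against the control depended on the scaling of the arrays, as did that between the precursors, while that for hsa-miR-214-3p was below 0 under each scaling tried. With quantile normalization the medians were −0.09 for hsa-miR-205-5p and −0.0032 between the precursors, and with scaling to the median they were −0.24, −0.23 and 0.02, beside all-gene medians of −0.31, −0.18 and −0.10. No direction is therefore given for the set with hsa-miR-205-5p. Changes under 1.5-fold were seen for 85.5% of the members with hsa-miR-205-5p, 91.6% with hsa-miR-214-3p and 75.9% between the precursors, beside 60.5%, 75.2% and 51.8% of all genes. For 77 ribosome assembly factors the shares were 74%, 89.6% and 74%, so such closeness is not particular to the members. The members were also bright, with median scaled signals of 9.13 to 9.34 on the arrays, and genes of matched signal were not compared. Between replicates, the root mean square difference over the members was 0.29 for hsa-miR-205-5p, 0.30 for hsa-miR-214-3p and 0.45 for the scrambled control, beside 0.47, 0.29 and 0.61 over all genes.

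**Figure D3:**
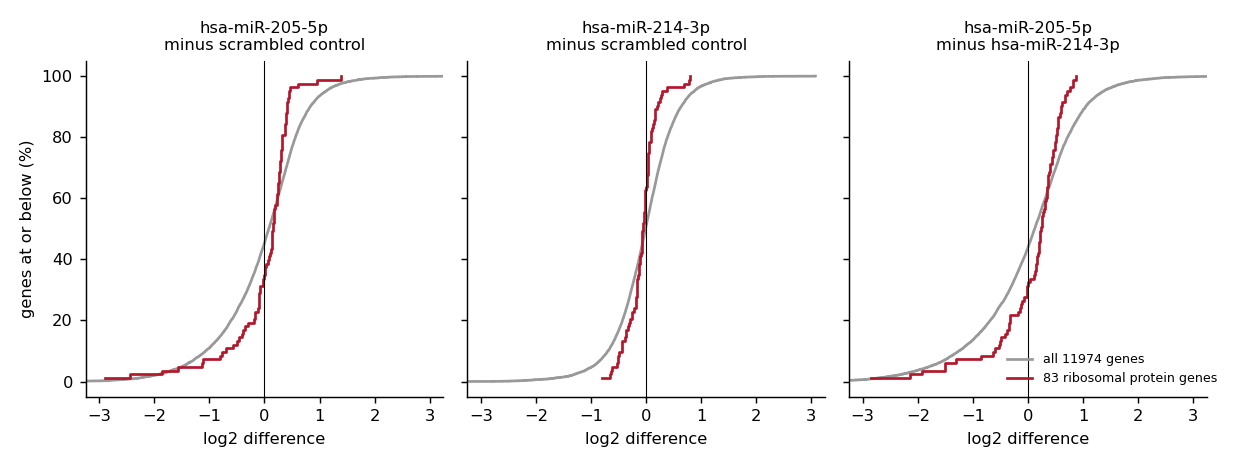
Cumulative share of genes (vertical axis, percent) at or below each log2 difference (horizontal axis) in the 3 comparisons, for the 83 ribosomal protein genes (red) and all 11974 genes tested (gray; a few lie beyond the range shown). The red curves are steeper than the gray ones, with 85.5%, 91.6% and 75.9% of members within 1.5-fold, and the red curves of hsa-miR-205-5p start from a tail of a few members below −1.

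The small subunit held 3 of 30 genes lower with hsa-miR-205-5p (RPS3, RPS9 and RPS14), the large subunit 1 of 42 (RPL29), the stalk 0 of 3 and the paralogs 2 of 7, beside 7.98% of all genes. The medians of these groups were 0.17, 0.16, −0.09 and −0.18 against the control. The difference between the subunits was not tested.

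Probes of 1 gene did not always move together. Of the 162 member probes, 17 were called lower with hsa-miR-205-5p against the control, beside 8.53% of all probes with a symbol, and 17 against hsa-miR-214-3p, beside 12.2%. In each comparison the 17 belonged to 13 genes. Among the 41 members with more than 1 tested probe, 10 had a probe called lower than in the control (24.4%, against 16.5% of such genes overall). Against hsa-miR-214-3p there were also 10 (24.4%, against 23.2% of such genes overall). The number of probes per gene was not taken into account. Against the control, every probe was called in RPL29 and RPS9 and the brightest in RPS14. In 7 genes only a probe other than the brightest was called, beside 266 of the 2680 such genes overall. The range of the differences between probes of a gene was at least 1 in 11 of the 41 (26.8%, against 28.9% of all genes with several probes).

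The widest range was that of RPL22, which binds RNA outside the ribosome as well. Its brightest probe gave −0.03, its second brightest −2.92 (adjusted p = 0.00914), and the dimmest 0.43. The second brightest probe read 0.0838 and −0.0005 with hsa-miR-205-5p, 3.199 and 3.209 with hsa-miR-214-3p, and 2.47 and 3.45 in the control. On this probe both hsa-miR-205-5p arrays lay below the others, whereas the brightest probe read 6.14 and 5.45 with hsa-miR-205-5p and 6.08 and 5.57 in the control, which overlap.

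RPLP0 showed the same split. Its other probe read 7.001 and 6.957 with hsa-miR-205-5p, 8.51 and 8.45 with hsa-miR-214-3p, and 8.41 and 8.80 in the control. The hsa-miR-205-5p arrays lay lowest, and the difference from the control was −1.63 (standard error 0.19, adjusted p = 0.00924), beside 0.10 on the brightest probe. RPL13A, a large subunit gene whose product also silences translation after interferon, had 3 probes at −0.17, −0.76 and −1.46, of which the last was called. The last probe read 5.65 on both arrays with hsa-miR-205-5p, 6.74 on both hsa-miR-214-3p arrays, and 7.10 and 7.12 in the control, without overlap. RPL35 gave −0.41 on its brightest probe and −1.25 on the other (adjusted p = 0.015), and RPL3, a core protein of the large subunit, −0.50 and −1.002 (adjusted p = 0.029).

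RPL28 and RPL37 were called on dim probes. RPL28 gave −0.58 on its brightest probe (adjusted p = 0.051), and −1.56 (adjusted p = 0.048) and 0.24 on probes designed to other RefSeq transcripts. RPL37 gave 0.09 on its brightest probe and −1.30 on the other (adjusted p = 0.032), which was also low with hsa-miR-214-3p (−1.42, adjusted p = 0.064). RPS26 had a probe at −1.88 (adjusted p = 0.094) beside 0.23 and 0.52, and that probe was well above background on 5 of 6 arrays.

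RPL5, which with RPL11 binds MDM2, gave 0.07 on its brightest probe and 0.06, −1.10 and −2.04 on the others, none called against the control. The control arrays differed on these other probes, at 6.80 and 3.73 on the one that gave 0.06, 5.64 and 7.33 on the one that gave −1.10, and 0.15 and 2.46 on the one that gave −2.04. Against hsa-miR-214-3p the probe that gave −2.04 was called (−2.87, adjusted p = 0.036), while the brightest gave 0.20. With the mean over its probes in place of the brightest, RPL5 was lower with hsa-miR-205-5p than with hsa-miR-214-3p, by −1.08 (adjusted p = 0.011). Over the alternatives with an adjusted p, it ranged from 0.011 to 0.95. RPL21, which also had the widest range with hsa-miR-214-3p, gave −0.57 to 0.89 over 9 probes with hsa-miR-205-5p, and none was called. RPL6, RPL23 and RPL7 followed it for hsa-miR-214-3p, with ranges of 1.23, 1.23 and 1.197.

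**Figure D4:**
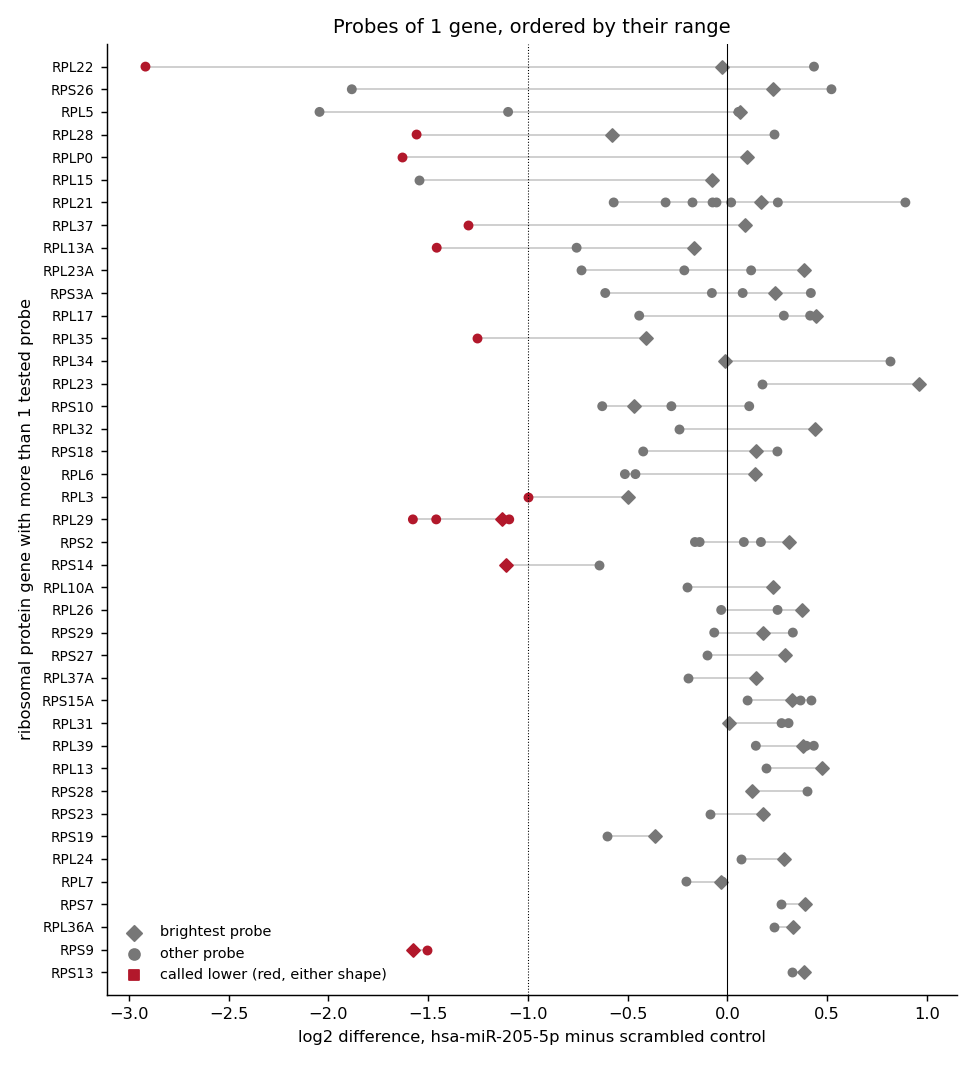
Log2 difference of hsa-miR-205-5p minus scrambled control (horizontal axis) for every tested probe of the 41 ribosomal protein genes with more than 1, ordered by the range of their probes; diamonds are the brightest probes, circles the others, red marks are probes called lower and the dotted line marks 2-fold. RPL22 has the widest range, and RPLP0, RPL13A, RPL35, RPL37, RPL28 and RPL3 have a red circle beside a gray diamond.

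Other parts of the translation machinery were read from lists. RACK1, a scaffold on the small subunit, was lower with hsa-miR-205-5p than in the control (−2.23, adjusted p = 0.0137), whereas FAU, which encodes a ribosomal protein joined to a ubiquitin-like one, gave 0.28 and was not called. Of 77 ribosome assembly factors, 8 were called lower and 0 higher, with a median of 0.02, beside 7.98% of all genes lower and 4.78% higher. The 5 lowest of these 8 were NOP56, a core protein of the box C/D particles that methylate rRNA (−2.73, adjusted p = 0.012), UTP14A (−2.30), the rRNA methyltransferase NOP2 (−2.21), NOP16 (−1.48) and NOL6 (−1.37). POLR1E, a subunit of RNA polymerase I, was the 1 of 15 genes called on its list (−2.27, adjusted p = 0.018). By the methods' t-test after Benjamini-Hochberg, 0 of all genes were called for hsa-miR-205-5p against the control, so no call of these lists held there.

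Of 37 initiation and elongation factors, 2 were called lower and 1 higher with hsa-miR-205-5p, beside 7.98% and 4.78% of all genes. EIF2S2 and EIF2S1 encode subunits of the factor that brings the first tRNA, and gave −2.26 (adjusted p = 0.02) and 1.70 (adjusted p = 0.01). EIF3K gave −1.19. With hsa-miR-214-3p, EIF2S1 was the 1 called gene of these lists, at 1.40 (adjusted p = 0.0405), and it was not called with the replicate block, with only the 4 arrays compared, with no filter on dim probes or without any 1 of the arrays other than scrambled control replicate 2 (its value without that array was not read), since 0 of all genes were called there. From the list of 16 regulators of ribosomal protein synthesis, LARP1 and RPTOR, the scaffold of the mTOR complex, differed between the precursors, by 1.57 and 1.34 (the level with hsa-miR-205-5p less that with hsa-miR-214-3p), beside 9.18% of all genes called in this direction. Against the control no regulator passed the test, and LARP1 was the lowest of them with hsa-miR-214-3p, at −1.27. A pyrimidine run stood at an annotated start in 36.7% of the initiation and elongation factors and in 7.58% of the assembly factors with a window, beside 66.7% of the members.

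**Figure D5:**
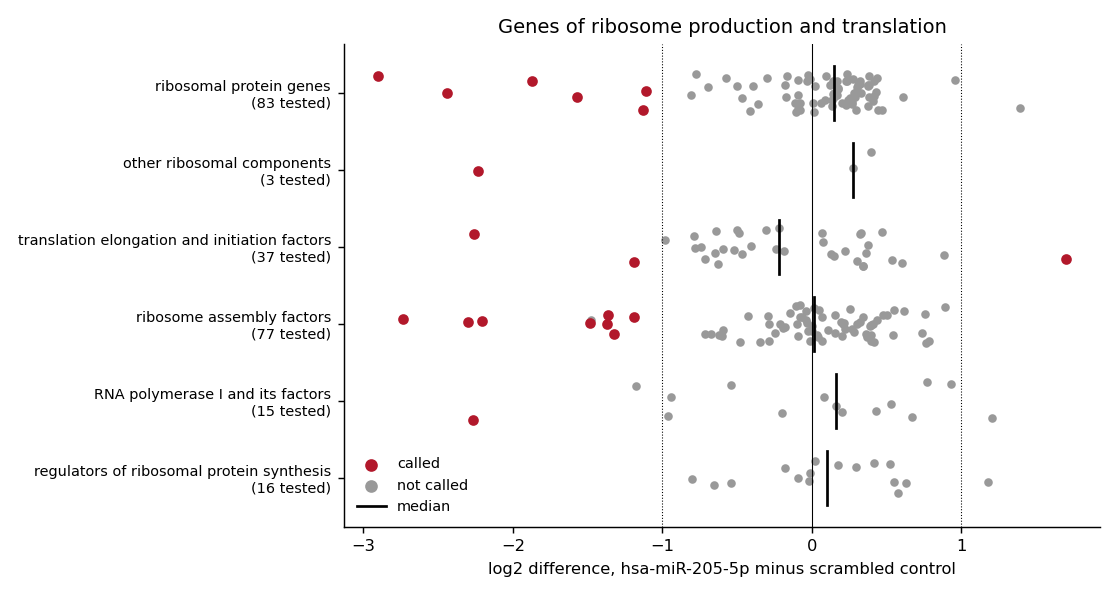
Log2 difference of hsa-miR-205-5p minus scrambled control (horizontal axis) for the genes of 6 lists, with the number tested beside each name; red points are called genes, vertical bars are medians and dotted lines mark 2-fold. The red points lie to the left of −1 in each list that has any, and EIF2S1 at 1.70 is the 1 red point on the right.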

How the data were processed

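The authors scanned the 6 arrays, and the scanner intensities they deposited were extracted with Agilent Feature Extraction 11.0 (named in the submitters' processing notes), which subtracted the local background and removed spatial trends. These signals are linear and were not made comparable between arrays. The authors deposited log2 values of these arrays too, in a table whose sorted columns are identical, with a median of 3.49 in each. The study's methods give a p-value and a 2-fold limit for the arrays and, for the study's statistics in general, a two-tailed t-test.

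Here control spots and 245 to 463 outlier spots per array were dropped, replicate spots averaged, and the 75th percentile of each array subtracted on the log2 scale. The filter kept 18464 probes, of which 83.3% had a symbol through the RefSeq table (GRCh38.p14, used for names and start sites). limma 3.58.1 (R 4.3.3; lmFit, eBayes) was fitted to all 6 arrays, with 3 residual and 2.47 prior degrees of freedom, after the code was tested on simulated data. Figures were drawn with matplotlib 3.10.9.

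The members and lists were chosen with earlier results of these data known. Genes were named by a rule: the stalk genes and RPSA, 8 paralogs and their parents, the 3 lowest and 3 highest members of each comparison, the 4 with the widest range over probes, the 5 with the highest signals, and all called members. Other members named here were chosen after their values were seen. For lists, up to 5 called genes were named. Some genes that the rule names are not reported here. Tried instead were normexp with an offset of 50 (on the median signal, since the files hold no mean signal), 3 other scalings, the log2 table of the authors, no filter and a stricter one, 4 arrays, a replicate block, trended robust variance, each array left out (a lone array was taken to vary as other groups do), unadjusted p, the methods' t-test, no fold limit, and the mean over probes. Slide and scan were not fitted as a block, since all arrays share 1 slide and 1 scan.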

Additional observations from a re-analysis of the deposited data

How the results depend on the processing

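RPS3, RPL7L1, RPL10L, RPS9, RPL29 and RPS14 lay below 0 in both comparisons of hsa-miR-205-5p in all 18 alternatives with a value per gene. Some alternatives left the difference itself unchanged, such as no filter, only the 4 arrays compared, or leaving out an array of a group not compared. The genes were also picked for being called lower, so this agreement of sign is not a test. Calls were lost through the adjusted p or, for RPL29 and RPS14 without scrambled control replicate 2 (−0.96 each) and RPS14 with the mean over probes (−0.88), through the 2-fold limit. Against the control, 6 members and 956 of all genes were called lower, but 1 and 206 with no filter on dim probes (RPS3), 2 and 405 with only the 4 arrays compared, 0 and 0 by the methods' t-test after Benjamini-Hochberg (4 and 692 unadjusted), and 0 to 7 members without 1 array. With only the 4 arrays and an unadjusted p, an alternative chosen after seeing the data, the counts were 6 and 1157. Without 1 array, 1 to 6 were lower between the precursors, and 0 to 1 were higher in each precursor's comparison with the control. With no fold limit 1 was higher with hsa-miR-205-5p against the control and 7 against hsa-miR-214-3p.

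The median of the members is given first for hsa-miR-205-5p, next for hsa-miR-214-3p and last between the precursors. It was −0.13, −0.28 and 0.15 with normexp and −0.2413, −0.2313 and 0.0205 with scaling to the median. For hsa-miR-205-5p and between the precursors it was −0.0917 and −0.0032 with quantile normalization, −0.0932 and 0.0065 with the authors' table, and 0.0469 and 0.178 with the mean over probes. Without 1 array it ran from 0.0912 to 0.239, from −0.116 to −0.0204 and from 0.158 to 0.293. RPL5 reversed between the precursors, at −1.08 with the mean over probes. The cause was not tested. Of the counts and medians over the alternatives, 144 stayed near the main value and 30 moved. This marks the size of a change and not its sign, since some medians that moved kept their sign, such as −0.28 for hsa-miR-214-3p with normexp.

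With the replicate block the counts of members called lower were 6, 0 and 6. Replicate differences of the groups correlated at 0.109, 0.00819 and −0.0514 over all genes and at 0.274, 0.155 and −0.0176 over the members, not above 0.1 for every pair of groups, so the numbers were not taken to pair the samples. With the block, 0 of all genes were called for hsa-miR-214-3p.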
